A study of Drosophila melanogaster with 9 samples.

Results

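The comparison described here put the 6 RNA-seq libraries of flies carrying a hairpin against the retrotransposon 412 or roo together as 1 group and set them against the 3 libraries of flies carrying a scramble hairpin. Its members were all 9 libraries of the study, 3 labelled 412KD, 3 labelled RooKD and 3 labelled scramble. Features were kept where the deposited tables of both hairpin groups listed them, which left 13765 shared features, of which 10599 had enough reads to be tested. The study sequenced thoraces of female Drosophila melanogaster at adult day 20, in the W1118 (BL5905) background, and its title ties retrotransposon expression to aging. All 3 groups, the scramble flies included, expressed a short hairpin RNA (shRNA) under Act5C, a driver active in nearly all cells. The comparison therefore asks what flies with either targeting hairpin shared relative to flies with a hairpin of no named target. With 1 scramble group as the only control, a change in both hairpin groups cannot be told apart from a change in scramble alone. Words such as fell, rose and low below describe the hairpin libraries relative to scramble. Each library came from pooled thoraces, and nothing in the labels tells if those pools had separate cultures or crosses behind them, so every p-value below measures the spread between these pools, which may be technical.

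412 and roo are retrotransposons with long terminal repeats, which copy themselves through an RNA intermediate and insert the DNA copy elsewhere in the genome. A short hairpin RNA is cut into a small RNA that guides the silencing machinery to matching transcripts. The thorax of the fly is filled mostly by flight muscle, which burns sugar and amino acids in densely packed mitochondria, and also holds fat body, the fore part of the gut, nerve cord, trachea and cuticle. Because these are whole thoraces, fewer cells of a type and less RNA per cell cannot be told apart.

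Between 17590599 and 26177587 reads were assigned to features per library. The libraries of the hairpin groups were not alike. Osk, which encodes a protein that patterns the oocyte, stood at 152, 5.17 and 1541 normalized counts (reads scaled to a common library size) in 412KD replicates 1 to 3. RooKD replicates 1 to 3 held 1612, 6.70 and 3.89, against 1.73 to 3.05 in scramble. On the first principal component, which held 40% of the variance, 412KD replicate 3 (−61.2) and RooKD replicate 1 (−49.8) stood farthest from the rest, 412KD replicate 1 lay between (−15.4), and the other 6 libraries, scramble included, ran from 8.45 to 28.2. Results are therefore also given for 7 libraries, without 412KD replicate 3 and RooKD replicate 1. Of the ovary and germline list, 29 members were tested, and 26 of them had a log2 fold change above 0, with a median of 2.95. Members such as osk had enough reads only through the hairpin libraries in which they were high, so that count was partly set by the filter. Over the 7 libraries the median was 0.22, but only over members that still had enough reads, which osk had not, so the 2 medians cover different members. By library, as log2 differences from the scramble mean, the median of that list lay at 4.18 in 412KD replicate 3, 4.35 in RooKD replicate 1 and 1.24 in 412KD replicate 1. The other 3 hairpin libraries stood at 0.23 (412KD replicate 2), −0.17 (RooKD replicate 2) and 0 (RooKD replicate 3). Of 12 genes of the male accessory gland and testis, 3 had enough reads to be tested.

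The RNA of the targeted elements did not differ between the pooled hairpin libraries and scramble beyond the spread between libraries. The 3 features of 412 held 75 reads in the 6 hairpin libraries and 42 in the 3 scramble libraries. Scaled to library size as CPM, 412 stood at 0.524, 0.903 and 0.727 in the libraries labelled 412KD, at 0.454, 0.356 and 0.414 in those labelled RooKD and at 0.592, 0.743 and 0.485 in scramble. The hairpin and scramble libraries overlapped, at 0.563 ± 0.210 (SD, n = 6) and 0.607 ± 0.129 CPM (SD, n = 3). The hairpin to scramble ratio was 0.928 (95% counting interval 0.657 to 1.45, exact permutation p = 0.738, two-sided, smallest possible 0.0238 over 84 splits). Without scramble replicate 2 the ratio turned to 1.05 (exact permutation p = 1).

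Roo, a far more abundant element in these thoraces, held 1389 reads in the hairpin libraries and 680 in scramble over its 2 features. Its CPM values were 10.6, 12.1 and 8.64 for 412KD. The RooKD libraries had 11.2, 9.16 and 14.1 CPM, and scramble 12, 8.86 and 8.16 CPM. The groups again overlapped, at 11 ± 1.99 (SD, n = 6) and 9.67 ± 2.04 CPM (SD, n = 3), a ratio of 1.13 with a counting interval from 1.013 to 1.22 (exact permutation p = 0.429, two-sided). The intervals cover counting error only. Neither element thus showed in its pooled RNA the fall that the group names give, and each direction below is drawn between libraries as labelled. For 412 the counting interval reaches down to 0.657 of scramble, but it pools in the RooKD libraries, which held 0.356 to 0.454 CPM. The libraries labelled 412KD, at 0.524 to 0.903 CPM, overlapped scramble, at 0.485 to 0.743 CPM. The driver gene Act5C (log2 fold change −0.11, edgeR adjusted p = 0.781) and 2 eye colour genes, v (0.83, 0.294) and w (−0.18, 0.541), which serve as markers in fly transgenes, did not pass the test.

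**Figure D1:**
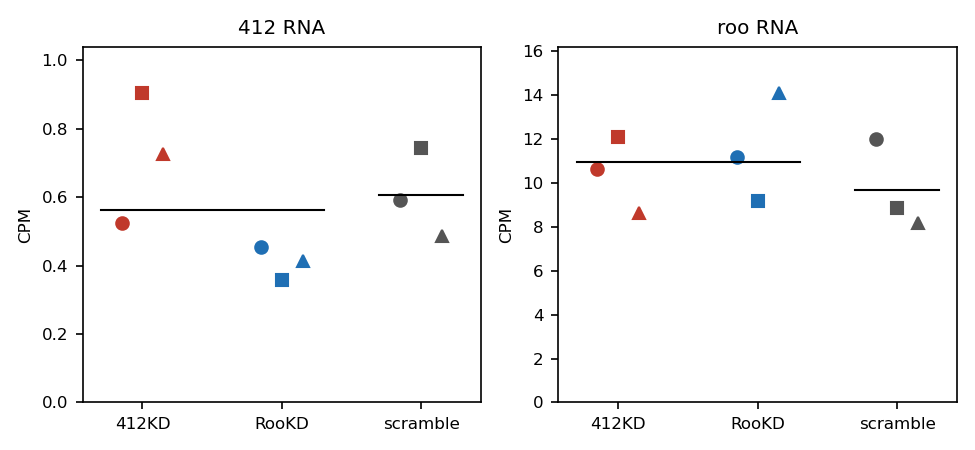
RNA of 412 (left) and roo (right) in CPM for each library, by group on the x axis; circles, squares and triangles are replicates 1, 2 and 3, and the lines are the means of the 6 hairpin and of the 3 scramble libraries. For both elements the hairpin libraries overlap the scramble libraries, with ratios of 0.928 for 412 and 1.13 for roo.

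Of 87 repeat features tested, 82 were left without 412, roo and ribosomal RNA. Of these 46 lay above 0 and 36 below, with a median log2 fold change of 0.04, and the 46 features of other retrotransposons with long terminal repeats had a median of 0.02. By edgeR 0 of the 82 passed after adjustment, with 11 at an unadjusted p under 0.05, as were 11.7% of all features tested. DESeq2 called FB4_DM, a foldback element, higher (1.13, adjusted p = 0.0290) and TART_B1, a telomeric element, lower. TART_B1 held 492.5, 467 and 589 normalized counts in scramble and from 61.0 to 322 (median 128) in the hairpin libraries, which did not overlap. Its log2 fold change was −1.68 ± 0.46 (SE, DESeq2 adjusted p = 0.0104, edgeR adjusted p = 0.244), with −1.12 in 412KD and −2.64 in RooKD. Drosophila lengthens its chromosome ends by copying such telomeric elements. Of the other 3 telomeric features HETA had −0.73, TART −0.41 and TAHRE −0.03, none of which passed either test. The pooled value of TART came from RooKD alone. TART held 1827, 2041 and 1966 normalized counts in 412KD, all above the 1550, 1626 and 1724 of scramble, and 264, 631 and 622 in RooKD, all below. Its log2 fold change was 0.25 in 412KD and −1.69 in RooKD, and the difference between the 2 did not pass (edgeR adjusted p = 0.0655).

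By edgeR's quasi-likelihood test with Benjamini-Hochberg adjustment over all features, 12 features passed at an adjusted p under 0.05, 5 higher and 7 lower in the hairpin libraries, or 0.113% of those tested (0.0472% higher and 0.0660% lower). At an unadjusted p under 0.05 there were 1243 features, 11.7% of those tested. DESeq2 called 182 features higher and 99 lower, 2.74% of the 10257 it gave an adjusted p (1.77% higher and 0.965% lower), among them all 12. In each of the 12 the 6 hairpin libraries lay wholly on one side of the 3 scramble libraries, as they did in 6.40% of all features tested (2.92% higher and 3.47% lower). The 412KD and RooKD libraries were also set against each other, and in none of the 12 did that difference pass (edgeR adjusted p from 0.889 to 0.998). Over all features 412KD against RooKD called 10, or 0.0943%. Of 280 DESeq2 calls that edgeR also tested, 219 had hairpin and scramble libraries that did not overlap, and in 0 of the 280 did edgeR call a difference between 412KD and RooKD (adjusted p of 0.154 or more). The pooled tests count a difference between 412KD and RooKD as spread, so they favour features in which these 2 groups are alike. The lack of such differences among the pooled calls was thus partly set in advance and is no independent evidence that the hairpins agree. With 7 libraries edgeR called 26 features, 19 higher and 7 lower, or 0.250%. Of the 12, 7 were among these, and of the 280 DESeq2 calls, 202 were still called by DESeq2 on 7 libraries, where it called 3.41% of features.

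**Figure D2:**
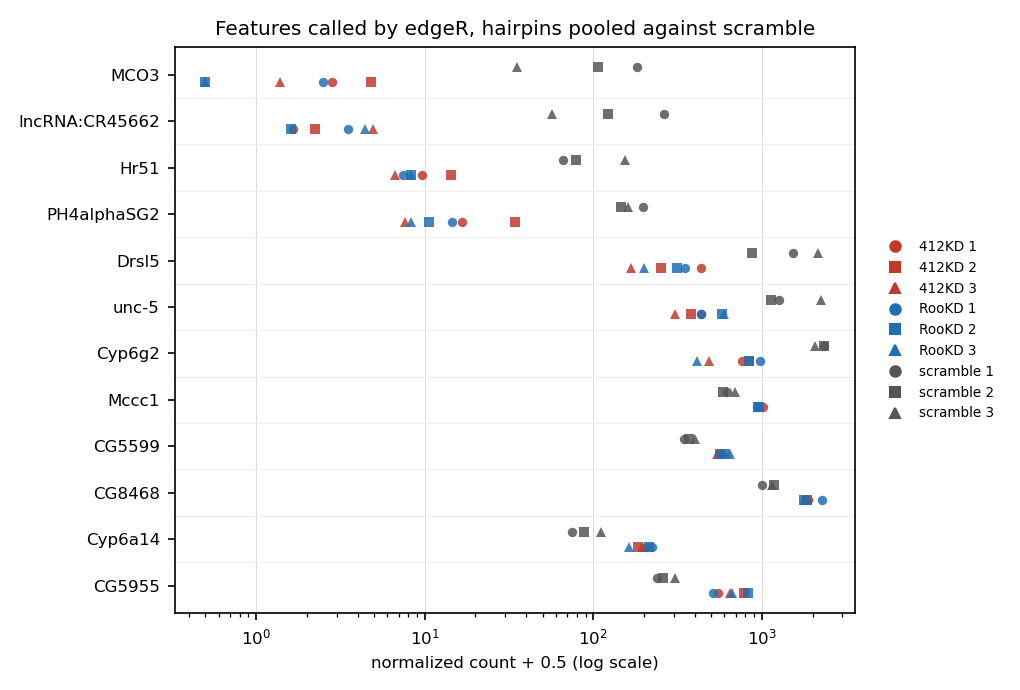
Normalized count plus 0.5 on a log scale (x axis) in each of the 9 libraries for the 12 features that passed edgeR, with 412KD in red, RooKD in blue and scramble in grey. The upper 7 features lie lower and the lower 5 higher in all 6 hairpin libraries than in all 3 scramble libraries.

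A long noncoding RNA that was present in scramble was almost undetected in both hairpin groups. lncRNA:CR45662 (3R, 24282911 to 24283368, dm6 coordinates of the deposited tables) held 263, 122 and 56.1 normalized counts in scramble and 1.12 to 4.43 (median 2.36) in the hairpin libraries. As reads, that was 304, 120 and 58 in scramble against 1 to 5 per hairpin library. It fell by a log2 fold change of −5.78 ± 0.52 (SE), or 54.8-fold (edgeR adjusted p = 0.00500). The values in 412KD and in RooKD against the same scramble libraries were −5.81 and −5.74, and with 7 libraries the value was −6.17 (adjusted p = 0.0313). The next gene along the arm, CG6356, annotated as an organic cation transporter, starts beyond its end on the other strand, at 24283955. CG6356 held 3361, 1527 and 939 normalized counts in scramble and 441 to 614 in the hairpin libraries, again without overlap, at −1.89 ± 0.31 on the log2 scale (edgeR adjusted p = 0.0659, DESeq2 adjusted p = 7.63e-07). In both genes the scramble libraries stood in the same order, with replicate 1 highest and replicate 3 lowest. The flanking genes Orct (−0.09), also an organic cation transporter, shps (−0.14) and CG34290 (0.19) overlapped between the groups. Whether the counting used strand is not given by the sources at hand, so reads of neighbours on opposite strands were assigned as the authors' counting left them.

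Hr51, which encodes a nuclear receptor needed for neuron remodelling in the brain of the fly, fell beside its neighbour unc-5, which encodes a netrin receptor that steers axons. Hr51 (2R, 15331325 to 15339384) held 65.8, 78.4 and 153 normalized counts in scramble and 6.20 to 13.8 (median 7.80) in the hairpin libraries. It fell by −3.49 ± 0.34 on the log2 scale, or 11.3-fold (edgeR adjusted p = 0.00500), with −3.33 in 412KD, −3.70 in RooKD and −3.32 with 7 libraries (adjusted p = 0.0313). Of 18 nuclear receptor genes tested it was the only one that passed edgeR, and the list had a median of 0.05 with 11 above 0, against a median of 0.02 and 52.4% above 0 over all features. Unc-5 (2R, 15340472 to 15368300) held 1259.5, 1139 and 2235 normalized counts in scramble and 305 to 599 (median 435) in the hairpin libraries. It fell by −1.76 ± 0.25, or 3.40-fold (edgeR adjusted p = 0.0435), and with 7 libraries by −1.63 (adjusted p = 0.0648).

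The low stretch reached past Hr51 on its other side too. lncRNA:CR44371, which ends just before Hr51 on the opposite strand, had 0 reads in all 6 hairpin libraries and 17, 8 and 31 in scramble. It was too low to be tested. Set against a floor of 3 reads over the hairpin group, it was at least 34.3-fold lower. CG8160, the next gene, had 14 reads over the 6 hairpin libraries (0 to 5 each) and 21, 11 and 41 in scramble, at −3.21 on the log2 scale (edgeR adjusted p = 0.141). Beyond these 4 adjacent features the difference ended on both sides. CG8157 held 265 reads in the hairpin and 146 in the scramble libraries (−0.01), and Pms2, a mismatch repair gene whose annotated end overlaps that of unc-5, held 754 and 337 (0.23). CG8160 and lncRNA:CR44371 were picked after their values were seen. By read count, scramble replicate 3 was the highest library in each of the 4 low features.

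**Figure D3:**
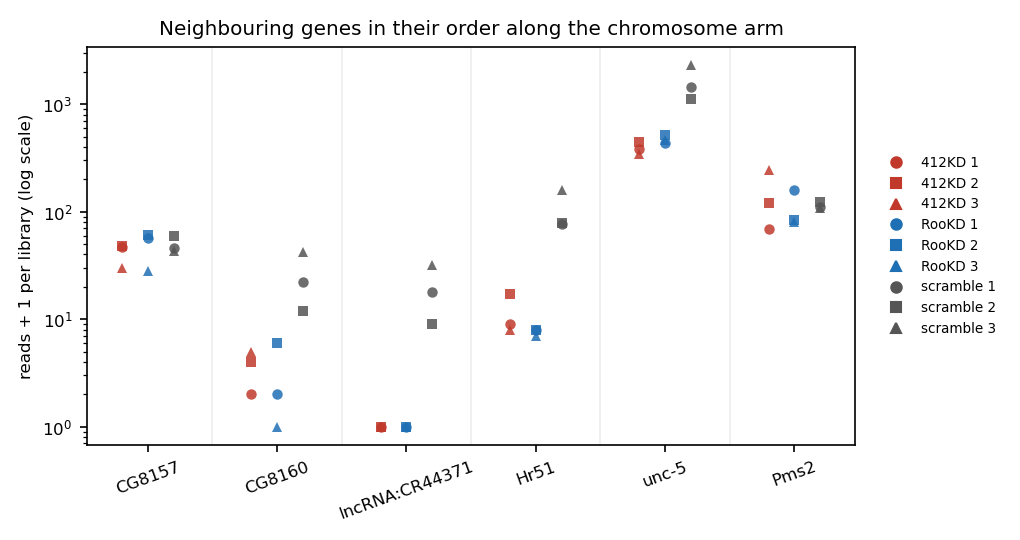
Reads plus 1 per library on a log scale (y axis) for Hr51 and its neighbours in their order along chromosome arm 2R, with 412KD in red, RooKD in blue and scramble in grey. CG8160, lncRNA:CR44371, Hr51 and unc-5 lie lower in all 6 hairpin libraries, and the outer genes CG8157 and Pms2 overlap between the groups.

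Adjacent genes that moved together were counted over all tested genes, passing over untested genes between them. Of 10503 pairs of neighbouring tested genes, 15 had both members called in the same direction by DESeq2, 14 of them with gene models apart. DESeq2 called 180 of the 10512 tested genes higher and 98 lower, and 11.1% and 8.16% of these had a neighbour called in the same direction. How many pairs the call rates alone would give was not tested. The 15 pairs included Hr51 with unc-5, lncRNA:CR45662 with CG6356, and CG42846 with CG34454 on 3L. The last pair held log2 fold changes of −1.18 and −1.20 (DESeq2 adjusted p = 0.00276 and 6.51e-06, edgeR adjusted p = 0.184 and 0.0531). Several of the other pairs were Jonah proteases, whose genes lie in clusters of near-identical copies.

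MCO3 and PH4alphaSG2 were nearly absent from the hairpin libraries. MCO3 (3R, 25897476 to 25899744) encodes a multicopper oxidase, an enzyme class that oxidises phenols or metal ions. It held 180, 106 and 34.8 normalized counts in scramble and 0 to 4.31 (median 1.44) in the hairpin libraries, or 348 against 10 reads in all. It fell by −5.89 ± 0.69 (edgeR adjusted p = 0.0189), with −5.34 in 412KD, −6.96 in RooKD and −5.75 with 7 libraries (adjusted p = 0.0409). The neighbours CG5948 (−0.39) and CG5913 (−0.28) overlapped between the groups. Of the 17 metal handling genes tested 11 lay below 0, with a median of −0.08, and MCO3 alone passed edgeR.

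PH4alphaSG2 (3R, 30490074 to 30491987) encodes an alpha subunit of prolyl 4-hydroxylase, the enzyme that hydroxylates proline in collagen. It held 196, 146 and 161 normalized counts in scramble and 7.09 to 33.6 (median 12) in the hairpin libraries. It fell by −3.48 ± 0.42, or 11.1-fold (edgeR adjusted p = 0.0189), with −3.13 in 412KD, −3.95 in RooKD and −3.25 with 7 libraries (adjusted p = 0.0319). PH4alphaMP, on the opposite strand and overlapping its 3′ end, held 44 reads in scramble and 128 in the hairpin libraries (0.66, adjusted p = 0.396). PH4alphaEFB, the subunit for type IV collagen, held 1542, 1599.5 and 1646 normalized counts in scramble and 749 to 1387 in the hairpin libraries (−0.53, edgeR adjusted p = 0.292, DESeq2 adjusted p = 0.0991). Of the 8 tested prolyl hydroxylase and collagen IV genes 6 lay below 0, with a median of −0.33, and 1 passed edgeR.

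Drsl5 was the only antimicrobial peptide gene that passed. It encodes a relative of the antifungal peptide drosomycin (3L, 3316781 to 3317144) and held 1529, 878 and 2152 normalized counts in scramble and 167 to 434 (median 283) in the hairpin libraries. It fell by −2.41 ± 0.32, or 5.32-fold (edgeR adjusted p = 0.0395), with −2.42 in 412KD, −2.40 in RooKD and −2.34 with 7 libraries (adjusted p = 0.0546). Of 20 antimicrobial peptide genes tested 17 lay below 0, with a median of −0.55 that was −0.43 with 7 libraries. The median per library ran from −2.51 in 412KD replicate 3 to 0.23 in 412KD replicate 2, and from −0.43 to 0.42 in scramble, so the groups overlapped. AttA, an attacin, lay in the other direction, at 77.7 to 1083 normalized counts in the hairpin libraries against 88.3, 127 and 69.7 in scramble. Its log2 fold change of 2.38 was not called (edgeR adjusted p = 0.336, DESeq2 adjusted p = 0.0512), but with 7 libraries edgeR called it (2.86, adjusted p = 0.0360). The libraries left out there, 412KD replicate 3 (155) and RooKD replicate 1 (77.7), held the lowest AttA counts of the hairpin libraries.

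Cytochrome P450 enzymes, which oxidise toxins, hormones and lipids, gave 1 call in each direction. Cyp6g2 (2R, 12188338 to 12190377), which can metabolise insecticides, held 2349, 2324 and 2059 normalized counts in scramble and 412 to 977 (median 799) in the hairpin libraries. It fell by −1.64 ± 0.24, or 3.12-fold (edgeR adjusted p = 0.0472; 7 libraries −1.64, adjusted p = 0.0360). Cyp6a14 (2R, 8564187 to 8567202) held 74.4, 87.6 and 111 normalized counts in scramble and 162 to 223 (median 199.9) in the hairpin libraries. It rose by 1.11 ± 0.17, or 2.16-fold (edgeR adjusted p = 0.0472; 7 libraries 1.07, adjusted p = 0.0744). In 412KD and RooKD the values were −1.69 and −1.59 for Cyp6g2, and 1.09 and 1.13 for Cyp6a14. Of 80 P450 genes tested 48 lay above 0, with a median of 0.10. Against 1.77% higher and 0.965% lower over all features, DESeq2 called 5 of the 80 higher and 1 lower. Cyp4g1, which makes cuticular hydrocarbons, was one of them, at 34075, 24504 and 34699 normalized counts in scramble and 54256 to 94361 in the hairpin libraries (1.05 ± 0.21, DESeq2 adjusted p = 4.59e-05, edgeR adjusted p = 0.141).

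Of the 5 genes that rose by edgeR, 2 encode enzymes of branched-chain amino acid breakdown. CG5599 (X, 15086125 to 15088629), annotated as the E2 component of the branched-chain ketoacid dehydrogenase, held 344, 370 and 400 normalized counts in scramble and 545 to 645 (median 573) in the hairpin libraries. It rose by 0.65 ± 0.10, or 1.57-fold (edgeR adjusted p = 0.0436; 7 libraries 0.70, adjusted p = 0.0513). Mccc1 (3R, 31790592 to 31793907), a subunit of the methylcrotonoyl-CoA carboxylase of leucine breakdown, held 623, 591 and 690 normalized counts in scramble. In the hairpin libraries it held 941 to 1011 (median 953), a narrow range. It rose by 0.60 ± 0.08, or 1.51-fold (edgeR adjusted p = 0.0395; 7 libraries 0.61, adjusted p = 0.0513).

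A list of this pathway was then drawn from the deposited gene descriptions after these values were seen. Of its 14 tested members 13 lay above 0, with a median of 0.44 against 0.02 over all features. EdgeR called CG5599 and Mccc1 alone and DESeq2 7, all higher, and in 8 the hairpin libraries all lay above scramble. Over all features DESeq2 called 1.77% higher, and in 2.92% the hairpin libraries all lay above scramble. The list was drawn with CG5599 and Mccc1 in view and is no independent evidence of its direction. Without them edgeR called 0 of 12 and DESeq2 5, with a median of 0.44. The library medians ran from 0.31 to 0.57 in the hairpin libraries and from −0.08 to 0.07 in scramble, and with 7 libraries the median was 0.48. The members called by DESeq2 alone were CG6638, an isovaleryl-CoA dehydrogenase (0.65, DESeq2 adjusted p = 0.00164), the other carboxylase subunit Mccc2 (0.47, 0.00974), the E1 alpha subunit CG8199 (0.44, 0.0167), CG3902, a branched-chain acyl-CoA dehydrogenase (0.44, 0.00632), and CG17896, a methylmalonate-semialdehyde dehydrogenase (0.43, 0.00632). Their edgeR adjusted p lay at 0.148 or above. The hydratase CG8778 (0.01) and CG4747 (−0.01), a GLYR1 homolog that entered the list through its domain, overlapped between the groups. So did CG5044 (0.10), CG17691 (0.27), CG1673 (0.32) and CG15093 (0.70), none of them called by either test.

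**Figure D4:**
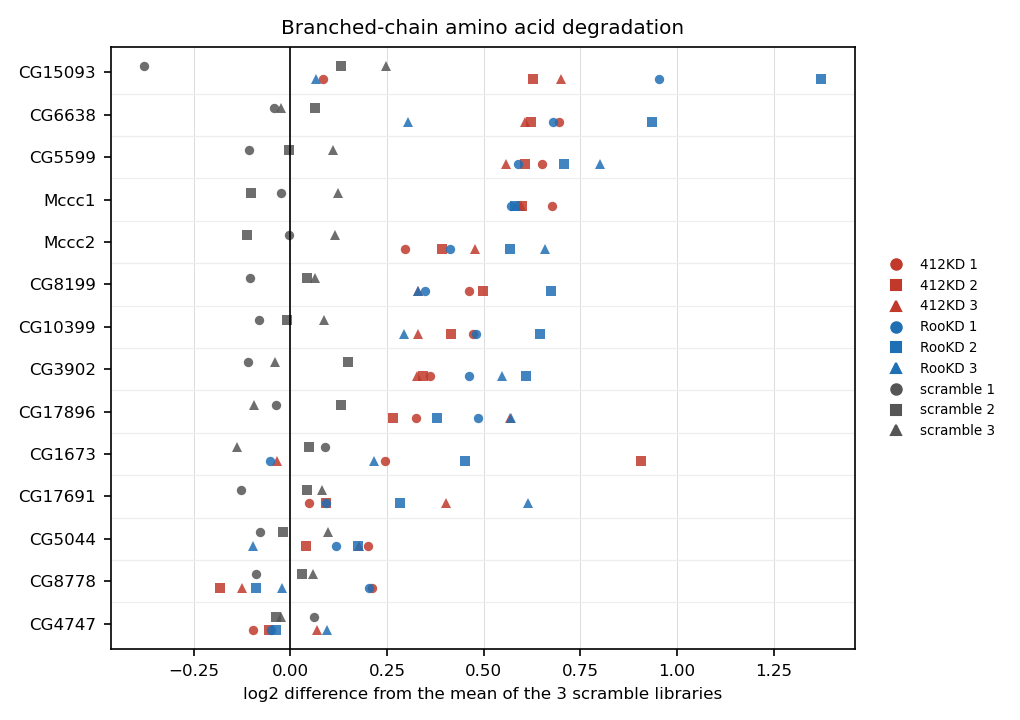
Log2 difference of each library from the mean of the 3 scramble libraries (x axis) for the 14 tested genes annotated to branched-chain amino acid degradation, with 412KD in red, RooKD in blue and scramble in grey. In 8 genes all hairpin libraries lie to the right of all scramble libraries. In the others, CG8778, CG4747, CG5044, CG17691, CG1673 and CG15093, the groups overlap.

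CG5955 had the largest rise by edgeR. It is annotated as an L-threonine 3-dehydrogenase, a mitochondrial enzyme of threonine breakdown (3L, 20466944 to 20469592), and held 238, 258 and 304 normalized counts in scramble and 516 to 832 (median 658) in the hairpin libraries. It rose by 1.32 ± 0.17, or 2.50-fold (edgeR adjusted p = 0.0368), with 1.31 in 412KD, 1.33 in RooKD and 1.41 with 7 libraries (adjusted p = 0.0319). CG8468, annotated as a monocarboxylate transporter (2R, 14219898 to 14230620), held 1005, 1185 and 1156 normalized counts in scramble and 1774.5 to 2276 (median 1849) in the hairpin libraries. It rose by 0.77 ± 0.10, or 1.71-fold (edgeR adjusted p = 0.0395), with 0.72 in 412KD, 0.82 in RooKD and 0.73 with 7 libraries (adjusted p = 0.0319). Just past the threshold lay Eip71CD, a methionine sulfoxide reductase that repairs oxidised methionine, and CG18003, annotated as a hydroxy-acid oxidase. Eip71CD held 1253, 1669 and 2132.5 normalized counts in scramble and 3681 to 6142 in the hairpin libraries (1.38 ± 0.21, edgeR adjusted p = 0.0509; 7 libraries 1.48, adjusted p = 0.0467). CG18003 held 476, 599.7 and 402.5 in scramble and 898 to 1395 in the hairpin libraries (1.20 ± 0.19, edgeR adjusted p = 0.0531; 7 libraries 1.19, adjusted p = 0.0360). Neither gene overlapped between the groups, and both were picked after their values were seen.

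The 12 calls differed in how often they passed with 1 library left out. With fewer libraries the test has less power, so a lost call does not by itself show that it rested on that library. With each of the 9 libraries left out in turn, lncRNA:CR45662 and Hr51 passed edgeR each time, with adjusted p of at most 0.0327. MCO3 did not pass without RooKD replicate 2 (0.0650), scramble replicate 1 (0.135) or scramble replicate 2 (0.0873). PH4alphaSG2 did not pass without RooKD replicate 2 (0.0682) or without scramble replicate 1 (0.137), 2 (0.0873) or 3 (0.0563). For the other 8 it is shorter to name what could be left out with the call kept. Drsl5 passed without 412KD replicate 1 (0.0440), 412KD replicate 3 (0.0415) or scramble replicate 2 (0.0433). Cyp6g2 passed without 412KD replicate 3 (0.0452), RooKD replicate 1 (0.0360) or RooKD replicate 3 (0.0443), and CG5955 without 412KD replicate 1 (0.0440), 412KD replicate 3 (0.0424) or RooKD replicate 1 (0.024). CG8468 passed without 412KD replicate 3 (0.0415) or RooKD replicate 1 (0.024). Mccc1, CG5599 and unc-5 passed without 412KD replicate 3 alone (0.0452 each), and Cyp6a14 in no case (0.0527 to 0.316). For these 8 the highest adjusted p, without scramble replicate 1, ran from 0.165 to 0.331. The fold changes of all 12 kept their direction throughout. They ran from 0.55 to 0.66 for Mccc1, from −1.75 to −1.52 for Cyp6g2 and from −6.16 to −5.05 for lncRNA:CR45662.

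Larger log2 differences than any of the edgeR rises were found for digestive enzymes, but with a wide spread among the hairpin libraries. Of 26 digestive serine proteases tested 25 lay above 0, with a median of 2.06, and of 12 intestinal lipases and peptidases 11 did, with a median of 2.20. With 7 libraries the medians were 1.07 and 1.31. EdgeR called 0 of either list, with 15 and 7 members at an unadjusted p under 0.05, and DESeq2 called 9 and 3, all higher. Over all features 11.7% had an unadjusted p under 0.05, and DESeq2 called 1.77% higher. By library, the protease medians of 412KD were 2.03, 1.21 and 3.16, those of RooKD 2.84, 0.39 and 0.29, and those of scramble −0.55 to 0.46. The 3 highest medians belonged to the same 3 libraries that held the most ovary transcripts, and the part of either in the other was not tested. Jon99Cii held 1363 to 35966 normalized counts in the hairpin libraries against 379, 51.9 and 433 in scramble (4.98 ± 1.43, DESeq2 adjusted p = 0.000859, edgeR adjusted p = 0.285; 7 libraries 3.48). Jon99Ciii held 982 to 26758 against 300.4, 18.3 and 387 (5.0 ± 1.53, DESeq2 adjusted p = 0.00225, edgeR adjusted p = 0.301). Jon25Bii, with less spread, held 1031 to 3182 against 544, 313 and 734 (2.22 ± 0.40, DESeq2 adjusted p = 1.01e-07, edgeR adjusted p = 0.129) and passed edgeR with 7 libraries (2.33, adjusted p = 0.0328). Jonah genes have near-identical copies, so reads may be split among them and single values are uncertain. Among the peptidases, the aminopeptidase genes CG8773 (3.20, DESeq2 adjusted p = 0.000169) and CG31233 (2.67, 0.00483) were called higher by DESeq2 and not by edgeR (adjusted p = 0.184 and 0.236).

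DESeq2, but not edgeR, called some genes of lipid elongation and desaturation higher. A list of elongases and desaturases drawn from the deposited descriptions after seeing the values had 22 tested members, 16 of them above 0 and 6 below, with a median of 0.26 that was 0.16 with 7 libraries. DESeq2 called 8 higher (1.77% over all features) and edgeR 0, with 8 at an unadjusted p under 0.05 (11.7% over all features). The median in RooKD replicate 1 was 0.73, against 0.13 to 0.35 in the other hairpin libraries and −0.07 to 0.16 in scramble. Desat1, the main fatty acid desaturase, held 35941, 34837 and 42391 normalized counts in scramble and 44122 to 83675 in the hairpin libraries, with RooKD replicate 3 the highest (0.75 ± 0.18, DESeq2 adjusted p = 0.00540, edgeR adjusted p = 0.189). Fad2, a desaturase, held 1922, 1271 and 2026 in scramble and 3039 to 11413 in the hairpin libraries (1.57 ± 0.43, DESeq2 adjusted p = 0.00268; 7 libraries 1.13). FASN1, fatty acid synthase, had 0.69 ± 0.19 (DESeq2 adjusted p = 0.0211, edgeR adjusted p = 0.244).

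All 13 mitochondrially encoded genes lay above 0, with a median log2 fold change of 0.79 that was 0.84 with 7 libraries. EdgeR called 0 of them, with 10 at an unadjusted p under 0.05 (11.7% over all features). DESeq2 called mt:ATPase8 (2.29, adjusted p = 0.0262) and mt:ND5 (0.96, 0.0472), against 1.77% higher over all features. The 13 genes share the mitochondrial genome, and whether they vary independently was not tested. The hairpin library medians ran from 0.19 to 1.35, with RooKD replicates 1 and 2 (0.19 and 0.23) below scramble replicate 3 (0.29). The most abundant transcript, mt:CoI, had 0.29 (edgeR adjusted p = 0.639). Nerve genes, all 21 above 0 with a median of 0.22, and proteasome genes, 31 of 32 below 0 with a median of −0.22, held 0 calls by edgeR or DESeq2, with 1 and 0 members at an unadjusted edgeR p under 0.05, and their library medians overlapped between the groups. The 4 tested Turandot stress genes were above 0 with a median of 3.39, which was 1.54 without 412KD replicate 1. Their library medians were 5.57, 2.73 and 0.69 for the 412KD libraries, 1.61, 0.22 and −0.26 for RooKD, and between −0.55 and 0.81 for scramble. EdgeR called 0 of the 4 (1 at an unadjusted p under 0.05), and DESeq2 called neither TotA (adjusted p = 0.209) nor TotC (0.133) and gave TotM and TotX no adjusted p.

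**Figure D5:**
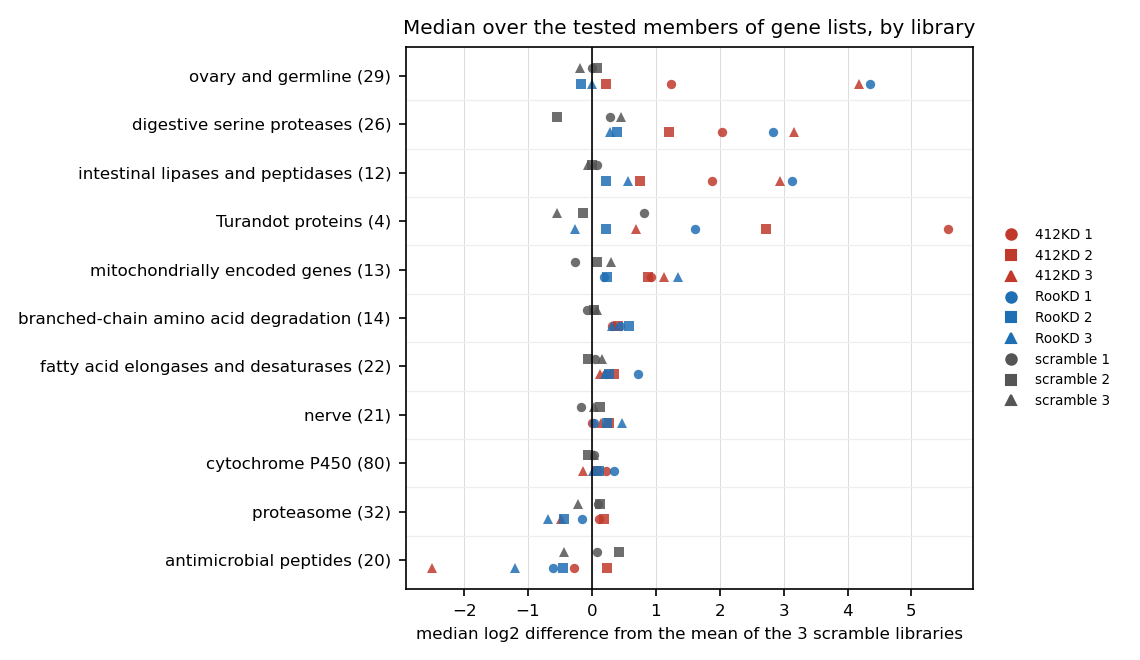
Median log2 difference from the scramble mean over the tested members of 11 gene lists (number tested in brackets), 1 point per library, with 412KD in red, RooKD in blue and scramble in grey. Branched-chain amino acid degradation, a list drawn after its values were seen, has narrow, separate groups. Intestinal lipases and peptidases are also separate (lowest hairpin median 0.23, highest scramble median 0.08). Their hairpin libraries, like those of the ovary and protease lists, spread widely.

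DESeq2 alone called several further genes lower that were well expressed in scramble. Gr43a, a gustatory receptor for fructose (2R, 7390869 to 7393161), held 1407, 2613 and 893 normalized counts in scramble and 8.97 to 162 (median 40.8) in the hairpin libraries. Its log2 fold change was −4.74 ± 0.77 (DESeq2 adjusted p = 2.95e-05, edgeR adjusted p = 0.0941), −4.07 in 412KD and −6.10 in RooKD. Its annotated end overlaps the gene Dhx15, so the 2 cannot be told apart there without strand. CG9676, annotated as a serine protease, held 681, 355 and 309.6 in scramble and 35.1 to 159 in the hairpin libraries (−2.36 ± 0.38, DESeq2 adjusted p = 3.90e-07, edgeR adjusted p = 0.0640), and edgeR called it with 7 libraries (−2.62, adjusted p = 0.0360). GstE1, a glutathione S-transferase, had −1.32 ± 0.37 (DESeq2 adjusted p = 0.0164, edgeR adjusted p = 0.252), CG6688, with a PDZ domain, −1.59 ± 0.37 (0.00164 and 0.184), and CG44006, with no annotated domain, −1.20 ± 0.24 (0.00105 and 0.141). The gene to (takeout), which links the clock to feeding, had −0.90 ± 0.19 (DESeq2 adjusted p = 0.00225, edgeR adjusted p = 0.169), at 9768, 15548 and 13387 normalized counts in scramble and 4741 to 8686 in the hairpin libraries. The histone demethylase gene Kdm2 had −0.69 ± 0.11 (0.000107 and 0.0581) and magu, whose product is a secreted protein with Kazal and thyroglobulin repeats, −1.02 ± 0.17 (2.98e-05 and 0.0659). The 7 largest rises called by DESeq2 alone, among those averaging 50 or more normalized counts with no overlap, were 5 ovary genes and the Jonah genes Jon99Cii and Jon99Ciii. Pxt, osk, BigH1, wisp and fs(1)N, the ovary genes, had log2 fold changes of 4.42 to 8.64 (edgeR adjusted p of 0.287 or more). They reached a mean of 50 through the hairpin libraries in which they were high, and in others some lay near the floor. In RooKD replicate 2 Pxt held 2 reads, as in scramble replicate 3, and BigH1 held 1, as in scramble replicates 1 and 2. Their lack of overlap is thus no evidence of a rise in all hairpin libraries. With 7 libraries edgeR's filter left wisp (2.26) and fs(1)N (3.07), and edgeR called neither (adjusted p = 0.366 and 0.265). DESeq2 on 7 libraries still called fs(1)N (adjusted p = 0.0158), gave BigH1 0.0601 and gave the other 3 no adjusted p.

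A pooled value can hide a difference between the hairpins, and 10 features were called between 412KD and RooKD. None of the 10 passed the pooled test. Reepl1, CG11699 and Kmn1, neighbours on X, were low in RooKD alone. Reepl1, a gene of the family that shapes the endoplasmic reticulum, held 121, 137 and 131 reads in 412KD, 0 in all 3 RooKD libraries and 213, 149 and 168 in scramble. Against a floor of 3 reads over the RooKD group it was at least 149-fold lower than in scramble (412KD against RooKD, edgeR adjusted p = 0.000364). Its hairpin libraries thus did not overlap scramble, while the pooled value was −1.41 with an adjusted p of 0.700. The pseudogene CR18217 was high in 412KD alone, at 828.6, 1118 and 694 normalized counts against 147, 138.5 and 159.7 in RooKD and 148, 149 and 153 in scramble (412KD against RooKD 2.57, edgeR adjusted p = 0.000667). CG11893, a gene with an ecdysteroid kinase-like domain, was low in 412KD alone, at 66.7, 76.7 and 36.3 normalized counts against 562, 446 and 499.8 in RooKD and 516, 276 and 266 in scramble (−3.07, edgeR adjusted p = 0.0225).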

How the data were processed

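RNA was extracted with Trizol and sequenced paired-end, per the labels. Per the submitters' processing notes, HISAT2 and DESeq2 were used with dm6; the counting tool, annotation release, use of strand and treatment of reads matching several places are not given by the sources at hand. Per the file headers, the authors deposited 2 tables with raw read counts, normalized signal values, FPKM, log2 fold changes and p-values, of which the counts were tested here; the deposited signal, FPKM, log2 and p-value columns were not used for results. The tables were joined on gene ID (13765 shared; 401 and 313 features of 1 table alone and 6 low-complexity features, up to 0.244% of reads, left out).

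The 6 hairpin libraries were tested against 3 scramble libraries with edgeR 4.0.16 (quasi-likelihood, robust, TMM, filterByExpr; R 4.3.3) at an adjusted p under 0.05; DESeq2 1.42.0 and limma 3.58.1 voom were alternatives, and adjusted p that DESeq2 gave as NA stayed NA. 412KD and RooKD were compared within a 3-group fit. Scripts were tested on simulated data. Normalized counts are reads scaled by TMM library sizes to their mean, and library medians of lists used a pseudocount of 0.5. The standard error is that of the log2 fold change. Of non-overlapping edgeR calls averaging 50 or more normalized counts, the 12 largest each way were named, filled from DESeq2 calls, plus up to 4 called members of each of 48 lists, the 412 and roo features and Act5C, v, w and y (y lacked the reads for a test). The groups, members and lists were chosen with earlier results of these data known, and 2 lists and further genes were added after the values were seen. Same-numbered libraries had correlations of deviations from −0.21 to 0.393, so the numbers were not taken to pair libraries.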

Additional observations from a re-analysis of the deposited data

Results flagged for a closer look

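Among 83 sets of 6 hairpin libraries (the values of a named gene or a list median), 13 had 1 library whose gap to its nearest neighbour took up an unusually large share of the range (Dixon's test, critical value 0.625). For values from 1 normal distribution, chance does this in about 5% of sets, or 1 in 20. The gene values are unlogged counts from 2 hairpin groups, so that rate may not hold here. Several of the 13 share the same library. RooKD replicate 1 was the high library for CG8468 (2276 normalized counts, others 1774.5 to 1889), Cyp4g1 (94361, others 54256 to 62619), Fad2 (11413, others 3039 to 4403), CG6660 (893, others 248 to 376), CG16904 (1681, others 543 to 885), the elongase and desaturase list (library median 0.73, others 0.13 to 0.35) and the glutathione S-transferase list (0.12, others −0.21 to −0.09). 412KD replicate 3 was high for Jon99Ciii (26758 normalized counts, others 982 to 9656) and Jon99Cii (35966, others 1363 to 5747) and low for the hemocyte list (−0.76, others −0.34 to −0.16). 412KD replicate 1 was high for Mccc1 (1011, others 941 to 959), 412KD replicate 2 for PH4alphaSG2 (33.6, others 7.09 to 16.1) and RooKD replicate 3 for CG44006 (178, others 79.3 to 116). The part of the ovary transcripts of RooKD replicate 1 and 412KD replicate 3 in these values was not tested.

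The hairpin groups differed from each other, by edgeR's test of 412KD minus RooKD, in 10 features. The log2 differences were −3.07 for CG11893, −2.83 for CG12934, −1.42 for lectin-24Db and −1.86 for Cyp4p1, which were lower in 412KD. They were 2.90 for slmo, 2.57 for CR18217, 7.94 for CG3117, 9.96 for Reepl1, 4.37 for CG11699 and 2.24 for Kmn1, which were higher in 412KD. RooKD had 0 reads of Reepl1, so its fitted value depends on the prior count.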

How the results depend on the processing

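The count of pooled calls, 12 by edgeR, moved most with the test. DESeq2 called 281, voom with sample quality weights 244, the mean of both hairpins in a 3-group fit 24 (10 shared with the 12), 7 libraries 26, DESeq2 on 7 libraries 386 and, added after seeing the data, 6 libraries without 412KD replicate 1 as well 5 (1 shared). Leaving out 1 library gave 2 to 23 calls, with 2 without RooKD replicate 2 or scramble replicate 1, 3 without scramble replicate 2, 5 without 412KD replicate 2, 6 without scramble replicate 3, 7 without 412KD replicate 1 or RooKD replicate 3, and 23 without 412KD replicate 3. Scaling by RLE or TMMwsp gave 14, by upper quartile 12 and by library totals 14, of which 2 were higher and 12 lower, against 5 and 7, where the median of all features moved from 0.02 to −0.11. No filter gave 13 and a mean of at least 50 reads 8. With the replicate block edgeR called 11, 6 of them among the 12, and Hr51 (adjusted p = 0.0205) and lncRNA:CR45662 (0.0147) were kept; lncRNA:CR45662 and Hr51 did not pass with 6 libraries (0.0793 each). The 10 calls of 412KD against RooKD became 81 by DESeq2, 4 with the replicate block, 70 with 7 libraries and 2 to 22 with 1 library left out. The ratio of 412, 0.928, ran from 0.816 to 1.05 with 1 library left out, turning to 1.05 without scramble replicate 2. The causes were not tested. Of the values for single genes under these settings, 1304 kept their direction and side of the threshold, 164 moved past the threshold, 163 moved out of it and 0 changed sign. Of 1100 list medians, 28 moved by more than 1 SD and 92, in 23 of 50 lists, changed sign, among them those of P450 genes (1 setting), nuclear receptors (2), metal handling (2), potassium channels (1) and the circadian clock (4). The reads of 412 (75 and 42) limit what can be said of that element.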

Other observations

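Of the 48 gene lists, 5 held a feature called by edgeR and 25 a feature called by DESeq2. Over all features edgeR called 0.113% and DESeq2 2.74%, and the lists had up to 85 tested members. How many lists would hold a call at these rates was not tested. Potassium channel genes held DESeq2 calls for Ork1, a leak channel (log2 fold change 1.21, adjusted p = 9.65e-05, edgeR adjusted p = 0.141), and KCNQ (0.59, 0.0128 and 0.184), both without overlap between hairpin and scramble libraries, while the list of 17 had a median of 0.06. Over all features DESeq2 called 1.77% higher, and in 2.92% the hairpin libraries all lay above scramble. Ork1 stood at 911 to 2082 normalized counts in the hairpin libraries and at 637, 652 and 707 in scramble. In the circadian clock list of 14, with a median of −0.01, DESeq2 called vri, a clock transcription factor (−0.49, adjusted p = 0.0376, edgeR adjusted p = 0.234), and to lower, against 0.965% lower over all features. Of the 14, 6 had an unadjusted edgeR p under 0.05 (11.7% over all features). In 4 the hairpin libraries all lay below scramble (3.47% over all features). Phr, the photolyase that repairs ultraviolet damage in DNA, held 76.2, 68.2 and 97.7 normalized counts in scramble and 125 to 450.4 in the hairpin libraries (1.94 ± 0.42, DESeq2 adjusted p = 7.72e-05, edgeR adjusted p = 0.173). Hemocyte genes lay below 0 in 18 of 24, with a median of −0.34, and edgeR called 0 of them, as did DESeq2. At an unadjusted edgeR p under 0.05 there were 5, against 11.7% over all features.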
